A study of Mus musculus with 7 samples.

Results

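The collagens and extracellular matrix genes of J558 tumours were examined as a list of 53 genes. These were chosen by name and function, with earlier results of these data known. They comprise fibrillar, beaded and basement membrane collagens, laminins, nidogens, proteoglycans, and elastic fibre and matricellular proteins. They also include the enzymes and chaperone that process collagen, and markers of the fibroblast surface. The deposited annotation named a probe for 49 of them, and 39 had a probe above background on every array of at least 1 group and were tested, of 7191 genes tested in all. J558 is a mouse plasma cell (myeloma) line, and the tumours were grown subcutaneously at the neck in male BALB/c mice, labelled as 10 weeks old. The mice ate standard chow and drank distilled water (control, n = 4) or oil palm phenolics (OPP, n = 3) at 1500 ppm gallic acid equivalents, and the tumours were excised after 4 weeks. The labels number the samples as replicates without naming the animals, and p-values therefore rest on the spread of these 7 samples, which may be technical in part. Tumour cells and host cells are both of mouse origin, so the arrays do not tell which of them made a transcript, and fewer cells of a type cannot be told apart from less RNA per cell.

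The extracellular matrix is the protein and sugar scaffold around cells. Fibrillar collagens give it tensile strength, basement membranes of type IV collagen, laminin, nidogen and perlecan line vessels and epithelia, and proteoglycans and matricellular proteins bind to this frame and to growth factors. In a transplanted tumour of blood cells, fibroblasts and vessel cells of the host are well known makers of matrix. Collagen chains are hydroxylated by prolyl and lysyl hydroxylases and folded with the chaperone Hsp47 inside the cell, and are cross-linked by lysyl oxidases outside it.

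The values are background-subtracted, normalised signals in arbitrary units. A signal counted as above background when it exceeded a limit set from the noise of its array, which came to 20.6 to 26.6 units, and from 10653 to 11268 of 23978 probes did so on each array. Across tested probes the log2 signals correlated at 0.970 to 0.987 within groups and at 0.954 to 0.983 between them. No probe differed between the groups at an adjusted p under 0.05 (0.00% of 10371 probes), while 609 of 7191 genes (8.47%) passed an unadjusted p under 0.05 in limma. Of the markers that define plasma cells, 9 of 10 listed were tested, with summed signals of 43282 to 49612 in control and 45166 to 49214 in OPP tumours. Most of each sum came from Xbp1 (means of 17519 in control and 18377 in OPP) and Pou2af1 (20157 and 20684). Of the 9 plasma cell markers, 3 had a log2 change above 0 and 6 below 0 (median −0.07), and none passed an unadjusted p under 0.05. Skeletal muscle markers stood out. All 13 tested markers were lower in OPP at an unadjusted p under 0.05, with sums of 7352 to 31254 in control and 80.2 to 5187 in OPP tumours.

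The promoters of 4 genes that are described below are shown. Hapln1, P4ha1 and Tnxb had signals that did not overlap between the groups. Col4a2 shares its start region with Col4a1, whose signal followed it from tumour to tumour. Whether the promoter sequences bear on these signals was not tested. Each is 300 bases from RefSeq (build GRCm38.p6), from 250 before to 50 after the start, 5′ to 3′ on the strand of the gene. Capitals mark a TATA box, a CCAAT box or a GC box, whose letters are given after the sequences and were searched on both strands.
Col4a2, chr8:11312555-11312854, plus strand: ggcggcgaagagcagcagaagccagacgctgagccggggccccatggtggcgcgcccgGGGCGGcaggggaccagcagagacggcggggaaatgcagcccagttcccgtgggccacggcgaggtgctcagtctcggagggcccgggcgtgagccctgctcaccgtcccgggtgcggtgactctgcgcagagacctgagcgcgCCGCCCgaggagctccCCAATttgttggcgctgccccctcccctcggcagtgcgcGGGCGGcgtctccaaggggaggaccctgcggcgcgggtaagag
Hapln1, chr13:89540386-89540685, plus strand: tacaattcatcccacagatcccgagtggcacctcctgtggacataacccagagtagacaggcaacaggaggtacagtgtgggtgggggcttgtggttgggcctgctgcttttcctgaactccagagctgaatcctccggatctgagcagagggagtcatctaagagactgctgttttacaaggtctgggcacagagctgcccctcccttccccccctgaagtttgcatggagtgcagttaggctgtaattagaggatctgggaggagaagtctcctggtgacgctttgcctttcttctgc
P4ha1, chr10:59323046-59323345, plus strand: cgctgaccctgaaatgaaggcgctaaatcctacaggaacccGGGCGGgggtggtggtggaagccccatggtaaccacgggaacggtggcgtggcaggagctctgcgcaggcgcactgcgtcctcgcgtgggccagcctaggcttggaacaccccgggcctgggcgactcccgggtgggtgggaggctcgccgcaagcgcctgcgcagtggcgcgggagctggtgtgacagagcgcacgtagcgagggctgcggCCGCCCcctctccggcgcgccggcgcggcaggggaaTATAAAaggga
Tnxb, chr17:34670285-34670584, plus strand: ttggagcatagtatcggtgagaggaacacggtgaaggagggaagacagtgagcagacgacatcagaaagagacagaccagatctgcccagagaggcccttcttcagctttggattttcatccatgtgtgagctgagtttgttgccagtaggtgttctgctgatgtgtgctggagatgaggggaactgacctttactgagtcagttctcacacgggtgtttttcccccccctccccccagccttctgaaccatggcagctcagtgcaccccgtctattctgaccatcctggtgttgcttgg
The Col4a2 window holds 1 CCAAT box and 3 GC boxes, and that of P4ha1 holds 2 GC boxes and 1 TATA box, the latter 40 bases after the start. None of these letters occurs in the windows of Hapln1 and Tnxb. Over 32851 RefSeq promoters of the same length, 13.6% hold the TATA box (TATAAA), 37.4% hold the CCAAT box and 35.7% hold the GC box (GGGCGG). The GC content was 73.7% for Col4a2 and 70.3% for P4ha1, against 54.3% for Hapln1, 53.0% for Tnxb and a median of 52.7% over all promoters. A promoter entry was found for 35 of the 53 matrix genes. Col4a1 starts 21 bases from Col4a2 on the opposite strand, inside the window shown.

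Most matrix genes had signals in OPP tumours that overlapped with those in control tumours. Of the 39 tested, Hapln1 and P4ha1 were higher and Tnxb was lower at an unadjusted p under 0.05, and none passed after adjustment over all probes. These 3 of 39 are 7.69%, beside 8.47% of all genes, with 4.70% of all genes higher and 3.77% lower. The same 3 were those without overlap between the groups (7.69%, beside 9.08% of all genes). The log2 change was above 0 for 27 of 39 (69.2%, beside 48.9% of all genes), with a median of 0.07 beside 0.00 over all genes. The median became −0.01 without control replicate 3 or without OPP replicate 1, and 0.17 without OPP replicate 2.

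**Figure D1:**
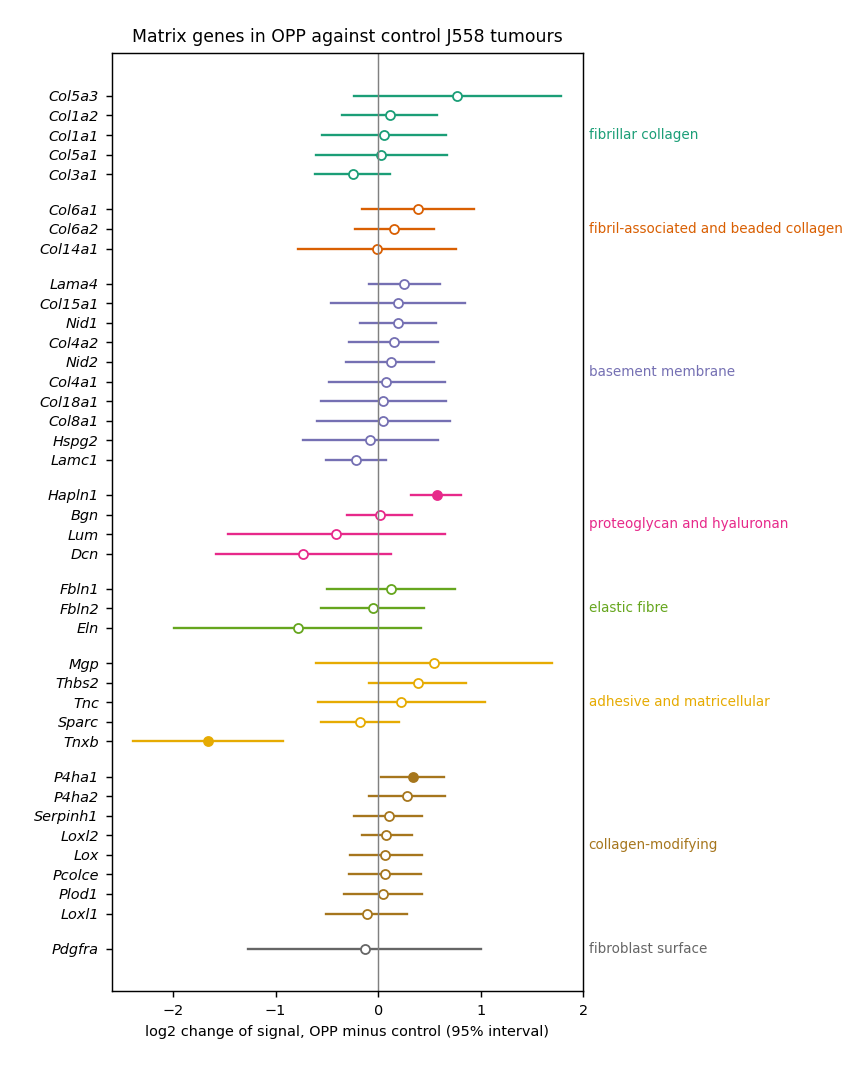
Log2 change of signal from control to OPP tumours (horizontal axis) for the 39 tested matrix genes, grouped by role, with lines for the 95% interval from limma. Filled circles mark the 3 genes whose groups did not overlap, Hapln1 (0.57), P4ha1 (0.34) and Tnxb (−1.66), and the intervals of the other 36 genes include 0.

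Hapln1, which encodes the link protein that ties proteoglycans to hyaluronan, was brighter in every OPP tumour. Its signals were 81.8, 65.4, 78.6 and 77.4 in control replicates 1 to 4 and 116, 108 and 113 in OPP replicates 1 to 3. The highest control tumour lay below the lowest OPP tumour, and the OPP tumours were within a narrow band. The means were 75.8 ± 7.18 (SD, n = 4) and 112 ± 3.90 (SD, n = 3), a 1.48-fold difference (95% interval 1.25 to 1.76). The log2 change was 0.57 with an SE of 0.10 (limma, unadjusted p = 0.000776, adjusted p = 0.275). It kept its unadjusted call when any of the 7 arrays was left out.

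Tnxb encodes tenascin X, a large glycoprotein of connective tissue that associates with collagen fibrils. Its signals were 34.0, 76.3, 36.7 and 35.2 in control and 13.3, 10.7 and 17.4 in OPP tumours. All 4 control tumours were above background and none of the 3 OPP tumours was, so it was tested only through the control group. The measured means were 45.5 ± 20.5 (SD, n = 4) and 13.8 ± 3.38 (SD, n = 3), and with each OPP array at its lowest signal above background the gene was at least 1.87-fold lower in OPP. The fitted log2 change was −1.66 with an SE of 0.31 (limma, unadjusted p = 0.000854, adjusted p = 0.275), and with a floor of 50 it was −0.15. Control replicate 2 held the highest signal and is part of the 1.87-fold bound. Without it the log2 change was −1.38 and the unadjusted call remained. That call rests on OPP signals that were not above background, and it was lost with a floor of 50. The other 3 probes named Tnxb were not tested, since they were above background on 1 array at most. Skeletal muscle and adipocyte markers were, like Tnxb, lower in OPP tumours. The muscle sums were 7352, 10654, 18995 and 31254 in control and 80.2, 5187 and 708 in OPP tumours. Since no OPP signal of Tnxb was above background, its order among the OPP tumours cannot be read. All 6 tested adipocyte markers had a log2 change below 0 and 3 of them had an unadjusted p under 0.05, with summed signals of 1037 to 3652 in control and 875 to 1146 in OPP tumours, and Fabp4, Lep, Plin1 and Retn were not tested. Of the muscle markers with a probe, Des and Mb were not tested. The part of muscle and fat in the Tnxb signal was not tested.

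P4ha1, the catalytic subunit of the prolyl 4-hydroxylase that stabilises the collagen triple helix, was the other gene without overlap. The signals were 71.9, 87.4, 70.6 and 82.8 in control and 95.1, 87.8 and 114 in OPP tumours. The gap between the groups was small, from control replicate 2 at 87.4 to OPP replicate 2 at 87.8. The means were 78.2 ± 8.23 (SD, n = 4) and 98.9 ± 13.4 (SD, n = 3), with a log2 change of 0.34 and an SE of 0.13 (limma, unadjusted p = 0.0338, adjusted p = 0.499). The unadjusted call was lost without control replicate 1, control replicate 3, OPP replicate 1 or OPP replicate 3. It was also lost without control replicate 1 and OPP replicate 3 together, and with array weights, a trended variance or a replicate block. The log2 changes were 0.19 to 0.37 in those settings.

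**Figure D2:**
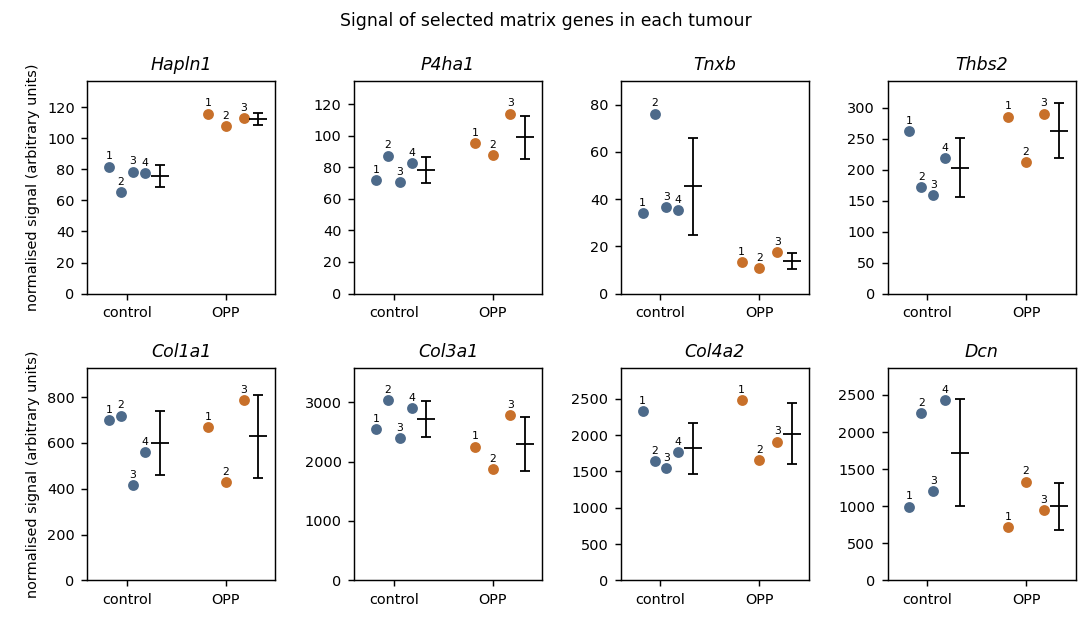
Normalised signal (vertical axis, arbitrary units from 0) of 8 matrix genes in each control and OPP tumour, with replicate numbers beside the points and the group mean ± SD as bars. Hapln1, P4ha1 and Tnxb have groups that do not overlap, whereas the groups of Thbs2, Col1a1, Col3a1, Col4a2 and Dcn do.

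The fibrillar collagens, which build the cross-banded fibres of connective tissue, did not separate control from OPP tumours. None of the 5 tested passed an unadjusted p under 0.05, their median log2 change was 0.06 (−0.05, −0.01 and −0.08 without control replicate 3, OPP replicate 1 and OPP replicate 3), and Col5a2, the partner of Col5a1 in type V collagen, was above background on no array. Col3a1, the chain of type III collagen, had signals of 2548, 3034, 2399 and 2898 in control and 2254, 1869 and 2780.2 in OPP tumours. OPP replicates 1 and 2 lay below every control tumour and OPP replicate 3 lay among them. The log2 change was −0.25 with an SE of 0.16 (limma, adjusted p = 0.641), with −0.11 without OPP replicate 2 and −0.40 without OPP replicate 3, where it passed an unadjusted p under 0.05. Col1a1, the major chain of type I collagen, had 700.1, 719, 416 and 561 in control and 668, 430.3 and 786 in OPP tumours, so that both groups covered nearly the same range (log2 change 0.06, limma adjusted p = 0.954). Its partner chain Col1a2 had a log2 change of 0.11, and Col5a1 had 0.03. Col5a3, a minor chain of type V collagen, was dim, with 26.1, 37.1, 34.0 and 8.2 in control and 47.9, 35.3 and 40.1 in OPP tumours. The groups overlapped, control replicate 4 was not above background, and the log2 change of 0.77 (SE 0.43, limma adjusted p = 0.616) became 0.35 without control replicate 4 and 0.00 with a floor of 50.

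Type VI collagen forms beaded filaments around cells, and its chains Col6a1 and Col6a2 were measured while Col6a3 had no named probe. Col6a1 had signals of 420.2, 362, 221 and 338 in control and 407, 362 and 529 in OPP tumours, with OPP replicate 3 highest and control replicate 3 lowest. The log2 change was 0.39 with an SE of 0.23 (limma, adjusted p = 0.638), and a dimmer probe of the same gene gave 0.25. Leaving out control replicate 3 gave 0.20 and leaving out OPP replicate 3 gave 0.24. Col6a2 had a log2 change of 0.15. Col14a1, a collagen found on fibril surfaces, had a log2 change of −0.01, and Col12a1 had no named probe.

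Of the basement membrane genes, 10 of 12 were tested, 8 had a log2 change above 0 and none passed an unadjusted p under 0.05 (median 0.10, range −0.22 to 0.25). The median was −0.02 without control replicate 3, −0.04 without OPP replicate 1, 0.05 without OPP replicate 3, 0.25 without control replicate 1 and 0.24 without OPP replicate 2. Col4a2, a chain of the type IV collagen network, had signals of 2329, 1645, 1548 and 1762 in control and 2480.0, 1659.5 and 1911 in OPP tumours. OPP replicate 1 and control replicate 1 were the highest, and the log2 change was 0.15 with an SE of 0.19 (limma, adjusted p = 0.818). Lamc1, the gamma 1 chain shared by most laminins, had 263, 300.2, 234 and 303 in control and 218, 261 and 228 in OPP tumours. It was the basement membrane gene with the smallest p, with overlapping groups and a log2 change of −0.22 (SE 0.13, limma adjusted p = 0.621). The other members were Col4a1 (0.08), Lama4 of vessel laminin (0.25), the laminin binding nidogens Nid1 (0.19) and Nid2 (0.12), perlecan or Hspg2 (−0.08), and the collagens Col8a1 (0.05), Col15a1 (0.19) and Col18a1 (0.05), all as log2 changes. Lama2 and Lamb1 were not tested.

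Among the small leucine-rich proteoglycans, Dcn and Lum, which bind collagen fibrils and regulate their assembly, varied widely between tumours. Dcn (decorin) had signals of 995, 2253, 1208 and 2428 in control and 714, 1330.4 and 944 in OPP tumours. Control replicates 2 and 4 were far above the other 5 tumours, which overlapped. The means were 1721 ± 724 (SD, n = 4) and 996 ± 312 (SD, n = 3), and the log2 change of −0.73 had an SE of 0.36 (limma, unadjusted p = 0.0818, adjusted p = 0.572). The other tested Dcn probes gave −0.64 and −0.25. Without control replicate 1 Dcn passed an unadjusted p under 0.05. Lum (lumican) had a log2 change of −0.41 (SE 0.45), with 136, 183, 111 and 261 in control and 60.0, 200.5 and 157 in OPP tumours. Bgn (biglycan), of the same family, had 0.02. Fmod (fibromodulin) was above background on no array, and Vcan (versican), to which the Hapln1 product binds, was not tested either.

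The elastic fibre genes were few and mostly dim. Eln, which encodes tropoelastin, had signals of 28.0, 28.6, 34.6 and 69.9 in control and 8.9, 42.7 and 23.8 in OPP tumours, with control replicate 4 highest and OPP replicate 1 not above background. The groups overlapped, and the log2 change was −0.78 with an SE of 0.52 (limma, adjusted p = 0.660). It depended on single tumours, with −0.23 without OPP replicate 1, −0.48 without control replicate 4 and −1.27 without OPP replicate 2, and was −0.12 with a floor of 50. Fbln2, a fibulin of basement membranes and elastic fibres, had 584, 597, 413 and 405 in control and 541, 355 and 552 in OPP tumours. Its log2 change was −0.05 (limma, adjusted p = 0.947), and a dimmer probe gave 0.17. Fbln1 had 0.12. Fbln5 was above background on no array, and Fbn1, the gene of fibrillin, had no named probe.

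The matricellular proteins modulate how cells attach to matrix. Sparc, which binds collagen and calcium, had signals of 2569.9, 2187, 1994 and 2091 in control and 2459, 1604 and 1866 in OPP tumours. OPP replicates 2 and 3 lay below every control tumour and OPP replicate 1 lay near the top, with a log2 change of −0.18 (SE 0.16, limma adjusted p = 0.753). It was −0.10 without control replicate 1, −0.04 without OPP replicate 2 and −0.35 without OPP replicate 1, where it passed an unadjusted p under 0.05. Thbs2, a thrombospondin, had 263, 172, 159 and 219 in control and 286, 212 and 291 in OPP tumours. OPP replicates 1 and 3 were above every control tumour and OPP replicate 2 was not (log2 change 0.39, SE 0.20, limma adjusted p = 0.589). Mgp, an inhibitor of calcification, had a log2 change of 0.54 (SE 0.49) with 498 in OPP replicate 3 and 91.9 to 257 in the other 6 tumours. Tenascin C (Tnc) had 0.22. Postn was above background on no array, Thbs1 was not tested and Fn1, the fibronectin gene, had no named probe.

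Of the genes whose products process collagen, 8 of 9 were tested and 7 had a log2 change above 0, with a median of 0.08. That median was −0.01 without OPP replicate 1, 0.03 without control replicate 3 and 0.15 without OPP replicate 2. P4ha1 alone had an unadjusted p under 0.05. Serpinh1, the gene of Hsp47, had signals of 1209, 1128, 845 and 1049 in control and 1202, 1003 and 1172 in OPP tumours, which overlapped (log2 change 0.10, SE 0.14, limma adjusted p = 0.844). P4ha2, the second catalytic subunit of prolyl 4-hydroxylase, had 0.28 (SE 0.16, limma adjusted p = 0.615) with 192, 215, 276 and 239.8 in control and 328, 240.4 and 274 in OPP tumours. The log2 changes of Plod1, Pcolce, Lox and Loxl2 were 0.05, 0.07, 0.07 and 0.08, and that of Loxl1 was −0.11. Plod2 was not tested.

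Pdgfra, the receptor that marks many fibroblasts, had signals of 117, 192, 76.5 and 320.3 in control and 97.2, 206 and 136 in OPP tumours, a range that was wider within the control group than the distance between the groups (log2 change −0.13, SE 0.49, limma adjusted p = 0.942). Fap, the other fibroblast surface gene, was not tested. Fibroblast markers outside the list had sums of 1141 to 2149 in control and 1209 to 1521 in OPP tumours, and of these 7 tested markers only Dpt passed an unadjusted p under 0.05, with Cdh11, Twist2, Prrx1 and Tcf21 not tested.

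The matrix genes varied more between tumours of the same group than the typical gene. The median SD of the log2 signal within groups was 0.30 for the 39 matrix genes and 0.18 over all tested genes, and the median size of the log2 change was 0.15 and 0.12. For 28 of 39 matrix genes (71.8%, beside 66.9% of all genes) the change was smaller than that SD. Eln (SD 0.82), Mgp (0.79), Pdgfra (0.77), Lum (0.72) and Col5a3 (0.69) had the widest spread, with 4.35-fold between the highest and the lowest tumour for Lum. For Eln and Col5a3 this SD includes a signal below background that was set to 10. These differences in spread were not tested.

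**Figure D3:**
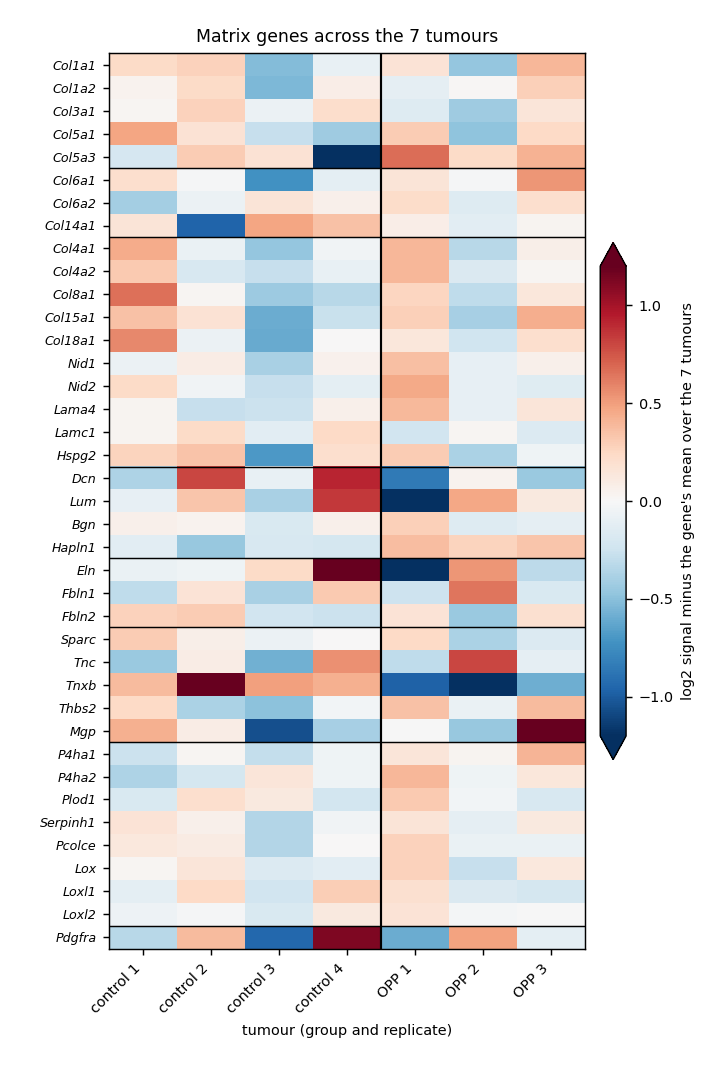
Log2 signal of each tested matrix gene (rows, grouped by role) in each tumour (columns, control left and OPP right of the vertical line), relative to the mean of that gene over the 7 tumours. Colours end at the limits of the bar; control replicate 3 is mostly blue, and it held the lowest signal of 22 of the 39 genes.

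Individual tumours stood apart across many matrix genes at once. Control replicate 3 held the lowest signal for 22 of 39 genes and the highest for 1, whereas OPP replicate 1 held the highest for 13 and the lowest for 4. Among the 10 basement membrane genes, control replicate 3 was lowest for 8, and OPP replicate 1 and control replicate 1 were highest for 4 and 3. Relative to the mean of each gene, the median log2 level of the basement membrane group was 0.29, −0.01, −0.42 and −0.01 in control replicates 1 to 4 and 0.33, −0.21 and 0.07 in OPP replicates 1 to 3. The 7 tested endothelial markers had 0.25, −0.06, −0.27 and −0.01, and 0.34, −0.11 and −0.01, with summed signals of 1880.4 to 2689.6 in control and 2244 to 2717 in OPP tumours. The tumours that were high or low for basement membrane genes were thus high or low for endothelial markers too. Kdr, Tek, Tie1 and Sox17 of that marker list were not tested. Other lists shared part of this order. Smooth muscle and pericyte markers were highest in OPP replicate 1 (0.44) and control replicate 1 (0.39), but lowest in control replicate 4 (−0.26), with Tagln, Myh11 and Cnn1 not tested. The collagen-modifying group was highest in OPP replicate 1 (0.23) and lowest in control replicate 3 (−0.21). The part of vessel content in the basement membrane signals was not tested.

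**Figure D4:**
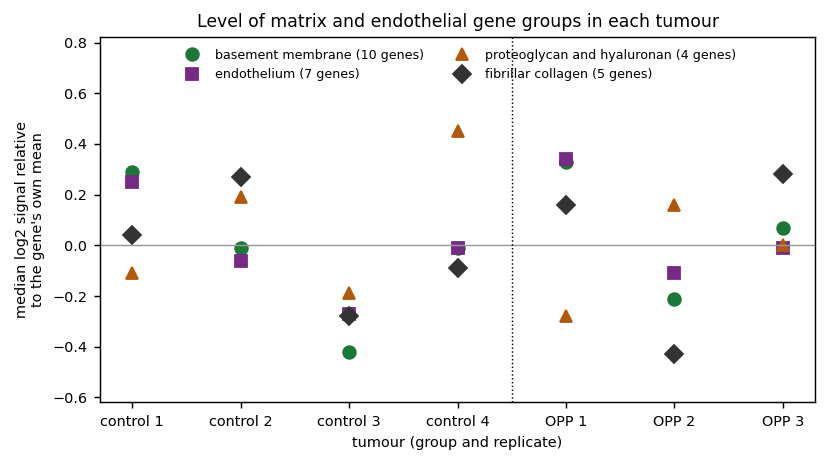
Median log2 signal, relative to the mean of each gene over the 7 tumours (vertical axis), for 3 groups of matrix genes and for endothelial markers in each tumour (horizontal axis). Basement membrane genes and endothelial markers lie close together, both highest in OPP replicate 1 (0.33 and 0.34). The median of the 4 proteoglycan genes is lowest there (−0.28), although Bgn and Hapln1 were at their highest in that tumour.

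The proteoglycan group had another order, with median levels of −0.11, 0.19, −0.19 and 0.45 in control and −0.28, 0.16 and 0.00 in OPP tumours. That median covers 4 genes that did not move as one, since Bgn (502) and Hapln1 (116) were highest in OPP replicate 1. Dcn, Lum, Eln and Pdgfra all had their highest signal in control replicate 4, and Dcn, Lum and Eln their lowest in OPP replicate 1, the tumour in which basement membrane genes were high. The skeletal muscle sum was also highest in control replicate 4 and lowest in OPP replicate 1. Whether muscle or the tissue around it bears on these signals was not tested.

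Of the matrix genes that lie next to each other in the genome, 3 pairs had both members tested. The genes of the type IV collagen chains Col4a1 and Col4a2 went up and down together over the 7 tumours, with Pearson's r = 0.949 (exact permutation p = 0.000992 over 5040 pairings, adjusted p = 0.00298) and Spearman's rho = 0.929 (exact permutation p = 0.00675, adjusted p = 0.0203). Without the 2 tumours farthest from the median r was 0.871, and after removal of the group means it was 0.961. Col4a1 had 772, 537, 411 and 553 in control and 751, 452 and 596 in OPP tumours, with the same tumours at the top as for Col4a2. Col8a1 on chromosome 16 and Col18a1 on chromosome 10 were, like Col4a1, highest in control replicate 1 and lowest in control replicate 3. Genes that lie apart were not correlated with each other, so whether neighbours follow each other more closely was not tested. Dcn and Lum gave r = 0.804 (exact permutation p = 0.0254, adjusted p = 0.0381) and rho = 0.821 (exact permutation p = 0.0341, adjusted p = 0.0512), with r = 0.786 without the 2 farthest tumours and 0.810 within groups. Col6a1 and Col6a2 did not follow each other (r = −0.105, exact permutation p = 0.823, rho = 0.054, exact permutation p = 0.919, r = 0.205 without the 2 farthest tumours and −0.378 within groups). All p-values were two-sided and adjusted over the 3 pairs. The pairs Col3a1 with Col5a2 and Hapln1 with Vcan could not be set against each other, since the second gene was not tested.

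**Figure D5:**
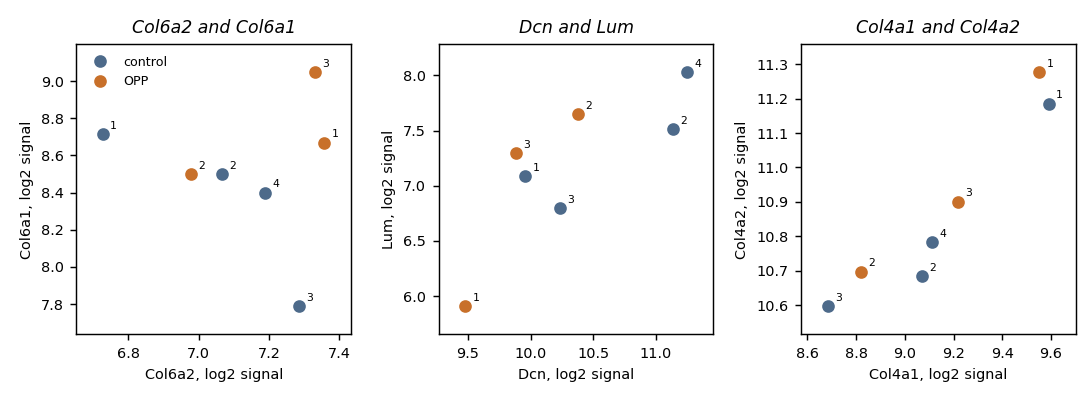
Log2 signals of neighbouring matrix genes against each other in the 4 control and 3 OPP tumours, with replicate numbers beside the points. Points of Col4a1 and Col4a2 rise together (r = 0.949), those of Dcn and Lum less tightly (r = 0.804), and those of Col6a1 and Col6a2 do not (r = −0.105).

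Other matrix genes, kept as a separate list, were called about as often as genes in general but leaned the other way from the 39. Of 130 listed, 47 were tested, of which 1 was higher and 3 were lower at an unadjusted p under 0.05 (8.51%, beside 8.47% of all genes), with a median log2 change of −0.04 and 17 of 47 (36.2%) above 0, against 69.2% of the 39 and 48.9% of all genes. The difference between the lists was not tested. Col26a1, a non-fibrillar collagen, had the smallest p, with 18.7, 20.3, 31.0 and 7.0 in control and 34.5, 43.4 and 70.5 in OPP tumours. The groups did not overlap, but only 1 of the 4 control signals was above background, so the gene was tested only through the OPP group, and no fold is given (means 19.2 ± 9.82, SD, n = 4, and 49.5 ± 18.8, SD, n = 3, limma adjusted p = 0.414). Efemp1, a fibulin, had 22.1, 26.9, 31.7 and 31.4 in control and 4.20, 23.4 and 16.0 in OPP tumours, none of the latter above background. It was tested only through the control group, with measured means of 28.0 ± 4.52 (SD, n = 4) and 14.5 ± 9.68 (SD, n = 3), and was at least 1.22-fold lower in OPP (limma, adjusted p = 0.460).

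Of the genes nearest in function, the matrix metalloproteinases and their inhibitors had 11 tested members with a median log2 change of 0.14. Of these, 1 passed an unadjusted p under 0.05 (9.09%, beside 8.47% of all genes). It alone had groups without overlap (9.09%, beside 9.08% of all genes). That gene was Mmp13, a collagenase that cuts fibrillar collagen. It had signals of 329, 240.2, 163 and 169 in control and 721, 908 and 1507 in OPP tumours, so that every OPP tumour was above every control tumour. The log2 change was 2.21 with an SE of 0.32 (limma, unadjusted p = 0.000177, adjusted p = 0.178). Mmp10, a stromelysin, had 22.8, 67.0, 37.4 and 40.7 in control and 51.9, 74.7 and 59.4 in OPP tumours, which overlapped (log2 change 0.65, SE 0.33, limma adjusted p = 0.579). The 9 tested TGF-beta ligands, receptors and Smads, a pathway known to induce collagen genes, had a median log2 change of 0.00 and none at an unadjusted p under 0.05. Its members with the smallest p were Smad3 (−0.15) and Tgfbr1 (−0.12), as log2 changes.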

How the data were processed

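Tumour RNA of 4 control and 3 OPP samples was hybridised to single-colour BeadChips, 1 array per sample, from RNA chosen by the authors for its quality. The deposited values are intensities on a linear scale, for which the authors used BeadStudio 1.5.1.3. They chose 4 RNA samples per condition, removed outlier samples by clustering, subtracted the background and applied rank invariant normalisation. OPP is held with 3 samples, and whether the removal narrowed the spread of that group was not tested. A table of signals before normalisation (14 columns) was not used, as its columns could not be tied to the labels. From 24048 probes, 66 that held no value and 4 control probes were dropped, and 19343 of the other 23978 had 1 gene symbol in the platform annotation, while 4635 stayed unnamed.

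Values under 10 were set to 10 and log2 was taken. A probe was tested when every array of either group held it above a limit, a fixed multiple of the noise SD that was estimated per array from values of 0 or less. The comparison of OPP with control used limma 3.58.1 (lmFit, then eBayes) under R 4.3.3, two-sided, with Benjamini-Hochberg adjustment over all 10371 tested probes, and a gene is given by its brightest tested probe. The procedure was tested on simulated data. Neighbouring genes were compared with SciPy 1.17.1 and tables were handled with Python 3.11.15, pandas 2.3.3 and matplotlib 3.10.9. Precision is limited by the number of arrays.

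The matrix genes and all lists were chosen with earlier results of these data known. Named with full values are genes at an unadjusted p under 0.05 or without overlap, the gene with the smallest p and the brightest in each role group, and the 2 smallest p of each other list. Col1a1, Col4a1, Lum, Mgp, Thbs2 and P4ha2 were added after their values were seen. Alternatives were leaving out arrays, array weights, a replicate block, a variance prior that was trended and robust, detection required on all arrays or on none, a floor of 50, median scaling, quantile normalisation and the mean of the probes of a gene.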

Additional observations from a re-analysis of the deposited data

Results flagged for a closer look

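In 3 of the 39 tested matrix genes (7.69%), the highest or lowest of the 4 control tumours stood apart from the others by more than Dixon's 95% critical value for 4 samples, the gap between log2 signals being divided by the range of the group. Chance flags about 1 in 20 groups, and the share over all tested genes was not counted. Control replicate 3, which held the lowest signal of 22 of the 39 genes, gave the flags of Bgn and Hspg2. The count is therefore not read as a result about the matrix genes. For Bgn the ratio was 0.914, with control replicate 3 at 362 and the other control tumours at 423 to 429.6. For Hspg2 it was 0.868, with control replicate 3 at 81.3 and the others at 151 to 166. For Tnxb it was 0.905, with control replicate 2 at 76.3 and the others at 34.0 to 36.7. Groups of 3 samples, such as OPP, were not tested in this way.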

How the results depend on the processing

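No matrix gene passed an adjusted p under 0.05 under any of the 17 alternatives. Matrix genes higher at an unadjusted p under 0.05 were 2, and 1 (Hapln1) with a trended and robust variance prior, with array weights and without control replicate 1 and OPP replicate 3 together. They were 1 to 4 when single arrays were left out, with 1 without OPP replicate 1 or 3 and 4 without OPP replicate 2. Lower genes were 1 (Tnxb), and 0 with a floor of 50 or detection on all arrays, which leaves Tnxb out, and 2 without control replicate 1 and OPP replicate 3 together. They were 1 to 2 when single arrays were left out. The genes that gained an unadjusted call in such a setting were Thbs2, P4ha2, Lama4, Dcn, Col14a1, Lamc1, Sparc, Eln and Col3a1. Over all genes, 2.95% to 5.15% were higher and 2.32% to 7.42% lower across the 17 alternatives. Without OPP replicate 2, these shares were 3.99% and 3.57%. Genes without overlap were 3, and 2 with a floor of 50 or detection on all arrays, and 3 to 10 when single arrays were left out, with 5 without control replicate 2 or 3 and 10 without OPP replicate 2. The share of all genes without overlap was not counted in these settings. Smaller groups separate more often by chance, so these counts cannot be read as a result about the matrix genes. The median log2 change lay between −0.01 and 0.17. The log2 change of Col4a2 turned to −0.01 without OPP replicate 1 and that of Serpinh1 to −0.01 without control replicate 3. Leaving out arrays gave Col4a2 a range of −0.01 to 0.30 and Serpinh1 −0.01 to 0.18. That of Fbln2 turned to 0.03 without control replicate 1, 0.04 without control replicate 2 and 0.15 without OPP replicate 2, and to 0.06 with the mean of its probes. That of Pdgfra turned to 0.04 with array weights, to 0.22 without control replicate 4 and to 0.13 without OPP replicate 1, over a range of −0.47 to 0.22. The causes were not tested.

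Samples with the same replicate number had deviations from their group means that correlated at r = −0.27, 0.08 and −0.16. Samples with different numbers gave r from −0.32 to 0.48. With so few arrays this cannot decide whether the numbers pair the samples. With the replicate number as a block, which leaves out control replicate 4, 2 genes were higher (Hapln1 and Tnc), 2 were lower (Dcn and Tnxb) and Pdgfra had 0.22.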
